A study of Rattus norvegicus with 64 samples.

Results

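The expression of 7 subunit genes of the GABA-A receptor, Gabra2, Gabra3, Gabra4, Gabra5, Gabrb1, Gabrb2, and Gabrd, was followed in the entorhinal cortex of Long Evans rats from postnatal day 2 (P2) to P45. The genes were taken by name from the 17260 genes of the count files. Total RNA depleted of ribosomal RNA was sequenced from layer II (LII) and from layers III to VI together (LDeep) of the medial (MEC) and the lateral (LEC) entorhinal cortex at P2, P9, P23, and P45, so that 64 samples fell into 16 groups. Each of the 4 tissues (MEC LII, MEC LDeep, LEC LII, and LEC LDeep) was sampled 5 times at P2, 3 times at P23, and 4 times each at P9 and P45. The layers were dissected by hand from brain slices, so every sample was a mixture of cell types, and fewer cells of a type cannot be told apart from less RNA per cell. The study calls the samples of a group biological replicates, without giving the animal behind each library, so p-values measure the spread between these samples. These p-values take all 64 samples as independent, although samples with the same replicate number were more alike on average than others.

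GABA-A receptors are chloride channels of several subunits that open when they bind GABA, the main inhibitory transmitter of the brain. Most receptors join alpha and beta subunits with a gamma subunit, and the alpha subunit helps to set the kinetics, the drug sensitivity, and the place of the receptor on the cell. The delta subunit replaces gamma in receptors outside the synapse, where they carry a tonic current. In the cortex, the make-up of the alpha subunits is known to change after birth, and Gabra2, Gabra3, and Gabra5 are known as subunits of the immature brain.

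In the Rn6 annotation of the files, 3 of the 7 genes lie in 1 cluster on chromosome 14. Gabrb1 (chr14:38643383-39112592, minus strand) and Gabra4 (chr14:39154541-39229128, plus strand) point away from each other across 41.9 kb, and Gabra2 (chr14:39662441-39798928, plus strand) follows 433 kb beyond Gabra4. Gabra5 (chr1:112833989-112946731, minus strand) lies 22.0 kb from Gabrg3, and Gabrb2 (chr10:27975353-28187368, plus strand) lies 113 kb from Gabra6. Gabra3 (chrX:152415134-152642538, minus strand) and Gabrd (chr5:172797479-172809374, minus strand) are on other chromosomes. No other annotated gene starts in the gaps of the cluster on chromosome 14.

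The promoters of the 2 beta subunit genes among the 7 are shown because Gabrb1 and Gabrb2 belong to the same subunit class and both rose with age. The windows come from RefSeq on the build GRCr8, which held 6 of the 7 genes (all but Gabra2). The parts shown run from 100 bases before to 30 bases after the annotated start. Capitals mark the 3 runs of at least 8 bases that the 2 parts share, in the same order on the same strand. The counts over all promoter windows and over pairs of genes used the full windows, which are longer than the parts shown. Both lie 5′ to 3′ in the direction of the gene, Gabrb1 at chr14:36902864-36902993 on the minus strand and Gabrb2 at chr10:27439693-27439822 on the plus strand.
Gabrb1: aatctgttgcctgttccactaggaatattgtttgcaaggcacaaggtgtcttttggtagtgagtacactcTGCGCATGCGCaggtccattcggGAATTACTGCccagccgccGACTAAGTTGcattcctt
Gabrb2: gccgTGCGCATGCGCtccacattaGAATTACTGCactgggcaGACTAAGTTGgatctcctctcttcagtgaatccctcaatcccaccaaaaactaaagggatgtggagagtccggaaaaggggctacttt
The first run, TGCGCATGCGC, occurs on either strand in 200 of 33469 RefSeq promoter windows (0.598%), and contains the sequence known as the motif of the factor NRF1. GAATTACTGC occurs in 13 windows (0.0388%) and GACTAAGTTG in 5 (0.0149%), and all 3 runs occur on the same strand in 2 windows. These 2 windows are those of Gabrb1 and Gabrb2, from which the runs were taken, and the counts of each run include them. Among the 15 pairs that the 6 genes with a window form, the longest run shared by the full windows, on either strand, was 7 to 11 bases. A shared run describes the sequence and was not tested as a binding site.

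The sum of counts over genes ranged from 3894334 to 11439143 per sample (median 7569157.5), and all 7 subunit genes were among the 12521 genes that passed the filter on low counts. The smallest count of a subunit gene in any sample was 32, for Gabrd at P2. As a check of the labels, all 4 layer II markers were higher in LII and all 6 deep layer markers were higher in LDeep. Before the comparisons, 7 libraries have to be named, with genes chosen after their values were seen. The library labelled MEC LII P2 replicate 1 held a CPM (counts scaled to the library size) of 0.600 for Slc17a7, the vesicular glutamate transporter of cortical excitatory neurons, and of 0.400 for Neurod6, against at least 237 and 37.6 CPM in the other 63 libraries. It held 675 CPM of Gad1, the GABA synthesizing enzyme, and 432 CPM of the transcription factor gene Zic1. In 4 further libraries, MEC LII P23 replicate 2 and replicate 2 at P45 of MEC LDeep, LEC LII, and LEC LDeep, Gabra6 was at 126, 32.8, 128, and 218 CPM, and Cbln3 at 63.6, 11.5, 69.6, and 91.3 CPM. Both genes are known from granule cells of the cerebellum, and in the other 60 libraries they reached at most 2.51 and 1.35 CPM. The library labelled MEC LDeep P2 replicate 1 held 1068 CPM of the 8 meningeal markers and 792 CPM of the 4 layer II markers in sum, against at most 87.7 and 397 CPM in the other 4 libraries of its group, while its deep layer markers (1025 CPM) lay within their range. In LEC LDeep P45 replicate 4 the layer II markers summed to 1408 CPM, against at most 833 CPM in the other 3 of its group. MEC LII P2 replicate 3 also stood apart but was kept in the fits without these 7 libraries. It held 218 CPM of Gad1 and 0.473 CPM of the meningeal marker Slc6a13. Replicates 2, 4, and 5 of its group held 75.4, 86.3, and 102 CPM of Gad1 and 20.8, 38.7, and 17.5 CPM of Slc6a13. Its median correlation with its own group was 0.944, against 0.954 for each of the last 2 of the 7. Values without the first 5, all 7, or some of the 7 libraries are given where a call or a rank changed or a value moved.

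Levels are log2 CPM, computed with a prior count of 2, and ± gives the SD over samples unless it follows an LFC. Log fold-changes (LFC, on the log2 scale) with standard errors and Benjamini-Hochberg (BH) adjusted p-values come from an edgeR quasi-likelihood fit to all 64 samples, and a gene was called differentially expressed at an adjusted p below 0.05. A prior look at these data had chosen the genes, so the counts below describe them.

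To follow the subunits through development, P23/P45 were compared with P2/P9, as older and younger animals, with the 4 tissues weighted equally. Of the 7 subunit genes, 6 were up-regulated in older animals and none was down-regulated, with a median LFC of 0.74. Among all genes tested 81.6% were called, and the median LFC was 0.01. Calls over all genes were nearly balanced in direction, with 5136 up- and 5079 down-regulated. Gabrd and Gabra4 rose most, followed by Gabrb2 and Gabrb1, while the LFC of Gabra3 and Gabra5 stayed below 0.3 and that of Gabra2 was 0.01.

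**Figure D1:**
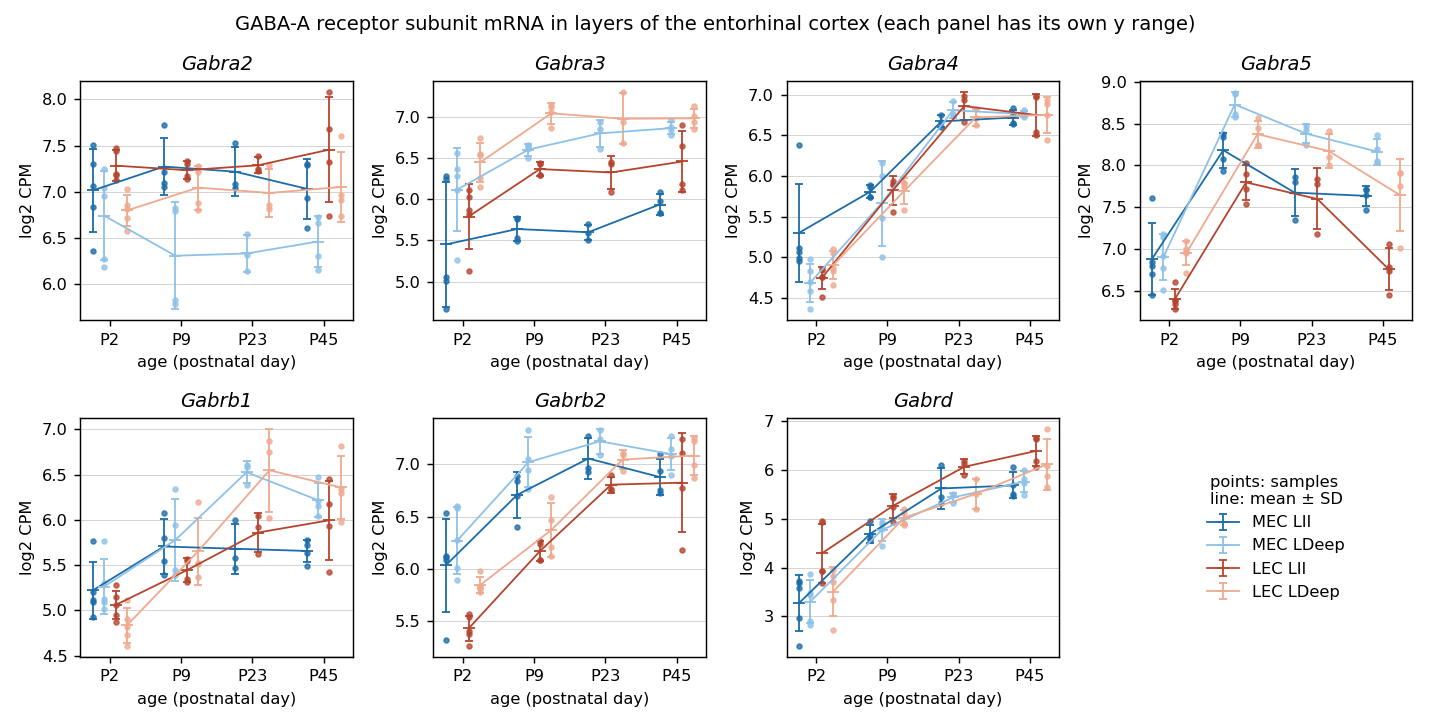
Log2 CPM of the 7 subunit genes by age, 1 panel per gene, with a point for each of the 64 samples and lines through the mean ± SD of each tissue (the y range differs between panels). Gabra4 and Gabrd climb from P2 to P23 in all 4 tissues, Gabra5 peaks at P9, and the tissue means of Gabra2 stay between 6.31 and 7.46.

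Gabra4 encodes the alpha subunit that commonly pairs with delta outside the synapse. At P2 its log2 CPM was 6.37, 4.96, 5.12, 5.06, and 4.99 in MEC LII and 4.83, 4.97, 4.70, 4.36, and 4.58 in MEC LDeep. In the LEC at P2 it was 4.86, 4.75, 4.51, 4.76, and 4.84 in LII and 5.10, 4.66, 4.87, 5.05, and 4.84 in LDeep. Apart from the first MEC LII value, which came from the library almost without Slc17a7, the P2 samples lay within 1 log2 unit of each other.
At P9 the values were 5.74, 5.88, 5.86, and 5.74 in MEC LII, 5.49, 6.0, 6.16, and 5.01 in MEC LDeep, 5.94, 5.89, 5.91, and 5.56 in LEC LII, and 5.86, 5.91, 5.92, and 5.58 in LEC LDeep. Across the 12 samples at P23 the lowest, median, and highest values were 6.60, 6.74, and 6.99, and across the 16 samples at P45 they were 6.44, 6.75, and 6.98. Older samples lay wholly above younger ones in 4 of 4 tissues, and P23 and P45 overlapped in each.
The LFC between older and younger animals was 1.39 ± 0.07 (BH adjusted p = 6e-26). It rose by 0.86 ± 0.09 from P2 to P9 (7.8e-12) and by 0.97 ± 0.10 from P9 to P23 (2.1e-12), and the LFC from P23 to P45 was -0.01 ± 0.10 (0.98). In MEC LII the LFC of Gabra4 was 1.08, and it was 1.28 without the library almost without Slc17a7. Without all 7 libraries the LFC over the 4 tissues was 1.44 ± 0.05.

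Gabrd encodes the delta subunit and had the largest LFC of the 7 genes. The 20 samples at P2 ranged from 2.4 to 4.96 with a median of 3.69, and the 16 at P9 from 4.44 to 5.46 with a median of 4.92. The 12 samples at P23 ranged from 5.21 to 6.18 with a median of 5.50, and the 16 at P45 from 5.46 to 6.84 with a median of 5.93. Within each of the 4 tissues, every older sample lay above every younger one, and every P23 sample above every P9 sample.
The LFC between older and younger animals was 1.55 ± 0.09 (BH adjusted p = 2.7e-22), with 1.30 ± 0.12 from P2 to P9 (3.6e-13) and 0.73 ± 0.13 from P9 to P23 (4.2e-06). From P23 to P45 it was 0.35 ± 0.13 (0.15), which did not pass the threshold. The 4 libraries with Gabra6 held 67.9, 56.2, 100.5, and 114.6 CPM of Gabrd, against 36.6 to 98.8 CPM (median 52.1) in the other 24 libraries at P23 and P45. Without these 4 libraries the LFC between older and younger animals was 1.43, and without the first 5 libraries named above it was 1.41 ± 0.08.

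**Figure D2:**
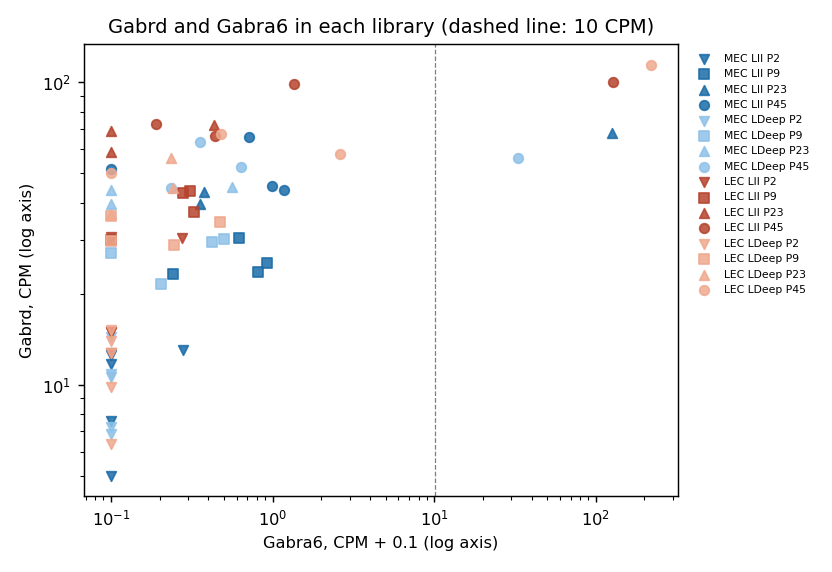
Gabrd (CPM) against Gabra6 (CPM plus 0.1) in each of the 64 libraries on log axes, with colours for the tissues and shapes for the ages. The 4 libraries above 10 CPM of Gabra6 (dashed line) lie at 56.2 to 115 CPM of Gabrd, and the others hold 2.51 CPM of Gabra6 or less.

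Gabrb1 and Gabrb2 encode beta subunits, which line the GABA binding site together with alpha. The samples of Gabrb2 at P2 had a lowest, median, and highest log2 CPM of 5.26, 5.86, and 6.60, and those at P9 of 6.08, 6.58, and 7.33. The same values for Gabrb2 were 6.76, 7.03, and 7.33 at P23 and 6.18, 7.04, and 7.27 at P45. Its older samples lay wholly above the younger ones in 1 of 4 tissues, and its P23 samples above the P9 samples in 3 of 4. The LFC between older and younger animals was 0.77 ± 0.06 (BH adjusted p = 2.6e-17).
For Gabrb1 the lowest, median, and highest values were 4.61, 5.10, and 5.77 among P2 samples, rising to 5.31, 5.54, and 6.34 among P9 samples. Among P23 samples they were 5.47, 6.03, and 6.87, and among P45 samples 5.42, 6.09, and 6.82. Older and younger samples overlapped in each tissue, and the LFC was 0.74 ± 0.07 (1.9e-13). Both genes rose from P2 to P9 (LFC 0.57 ± 0.10 for Gabrb1 and 0.67 ± 0.08 for Gabrb2) and from P9 to P23 (0.50 ± 0.11 and 0.46 ± 0.09), with LFC of -0.09 ± 0.11 and -0.04 ± 0.09 from P23 to P45 that did not pass the threshold.

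Gabra5 encodes an alpha subunit of receptors that lie mostly outside the synapse, and it had a peak. In MEC LDeep its log2 CPM was 6.77, 7.18, 6.51, 6.91, and 7.14 at P2 and 8.58, 8.85, 8.86, and 8.61 at P9. It was then 8.25, 8.42, and 8.47 in the P23 samples and 8.37, 8.05, 8.04, and 8.20 in the P45 samples. The P2 samples of LEC LII were at 6.39, 6.34, 6.38, 6.60, and 6.28 and the P9 samples at 7.72, 7.89, 8.03, and 7.54. For P23 the LEC LII values were 7.18, 7.77, and 7.84, and for P45 they were 6.45, 6.78, 7.06, and 6.74. The P9 samples lay above all P2 samples in 4 of 4 tissues, whereas the P45 samples did so in 1 of 4. In LEC LII the P45 samples again overlapped those of P2. They also overlapped in MEC LII (P2 highest 7.61, P45 lowest 7.47) and in LEC LDeep (7.10 and 7.01), each through 1 of the 7 libraries named above.
From P2 to P9 it was up-regulated with an LFC of 1.48 ± 0.08 (BH adjusted p = 9.4e-22), the largest of the 7 genes over this step. It then fell by 0.31 ± 0.09 to P23 (0.0035) and by 0.40 ± 0.09 to P45 (0.0045). The last step was lost when replicate 3 at P23 was left out (LFC -0.31, 0.135) and when counts were summed by replicate number (LFC -0.31, 0.28). The contrast of older with younger animals averages the rise and the fall, with an LFC of 0.23 ± 0.06 (0.00078).

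Gabra3 rose early, with an LFC of 0.39 ± 0.10 from P2 to P9 (BH adjusted p = 0.00093), and the LFC over the later steps were 0.02 ± 0.12 and 0.14 ± 0.12 and not called. Its median log2 CPM was 6.13 among P2 samples (range 4.66 to 6.74), 6.47 among P9 samples (5.49 to 7.14), 6.53 among P23 samples (5.51 to 7.30), and 6.81 among P45 samples (5.83 to 7.13), so the ages overlapped widely. Gabra2 ranged from 6.19 to 7.51 among P2 samples (median 7.04), from 5.78 to 7.72 among P9 samples (7.12), from 6.14 to 7.53 among P23 samples (7.06), and from 6.15 to 8.08 among P45 samples (6.92), and none of its age contrasts was called. The LFC of Gabra2 between older and younger animals was 0.01 ± 0.08 (0.91).

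Counted by step, 6 of the 7 genes were called from P2 to P9, all upward, beside 63.4% of all genes. From P9 to P23, 4 were up- and 1 (Gabra5) down-regulated beside 64.6%, and from P23 to P45 only Gabra5 was called, beside 3.85%. Between older and younger animals within a tissue, 3 were up-regulated in MEC LII (66.5% of all genes called), 6 in MEC LDeep (66.2%), 4 in LEC LII (62.7%), and 4 in LEC LDeep (64.5%). Gabra4, Gabrb2, and Gabrd were up-regulated in each of the 4 tissues. Gabrb1 was up-regulated in MEC LDeep (LFC 0.83), LEC LII (0.71), and LEC LDeep (1.23), and in MEC LII its LFC was 0.19 ± 0.15 (BH adjusted p = 0.26). Without all 7 libraries Gabra5 was up-regulated as well in MEC LII (LFC 0.26, 0.033) and LEC LDeep (0.31, 0.011), and Gabra3 in LEC LII (0.35, 0.030). With all libraries these LFC were 0.10 (0.49), 0.27 (0.052), and 0.32 (0.072). Gabra3 in LEC LII was also called without the first 5 libraries (0.35, 0.048).

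Cell type markers moved with age beside these genes. Their calls between older and younger animals stand beside 81.6% of all genes called (41% up- and 40.6% down-regulated). The summed level of the 6 excitatory neuron markers had a median of 852 CPM in P2 samples, 1344 in P9 samples, 2407 in P23 samples, and 2372 in P45 samples, although only 3 of them were up- and 2 down-regulated. The sum of the 8 inhibitory neuron markers went from a median of 465 CPM in P2 samples to 766 CPM in P45 samples (4 up- and 2 down-regulated), and that of the 8 general neuronal markers from 7502 to 6648 CPM (5 up- and 2 down-regulated). All 6 oligodendrocyte markers were up-regulated (median LFC 5.73), and their summed level ranged from 94.6 to 176 CPM in P2 samples and from 116 to 844 CPM in P9 samples. In P23 and P45 samples it ranged from 1355 to 16281 and from 771 to 11651 CPM. All 6 microglia markers were up-regulated (median LFC 1.37), with sums of 49.5 to 136 CPM at P2 and 250 to 405 CPM at P45. Of the 6 astrocyte markers 5 were up- and 1 down-regulated, with sums of 501 to 1869 CPM at P2 and 2197 to 5056 CPM at P45. No marker was at 0 in every sample, and the part of these cells in the changes of the subunits was not tested.

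The 4 alpha genes were also set against each other by shares, for which the counts of each gene were divided by its exon length (CPM per kb) and by the sum over Gabra2, Gabra3, Gabra4, and Gabra5 in the same sample. The sum covers these 4 genes only, and shares carry no test. Among the 20 samples of P2, Gabra2 held 37.4% ± 9.57 of the sum, Gabra5 28.1% ± 4.42, Gabra3 23.8% ± 7.89, and Gabra4 10.7% ± 2.64. Gabra5 then led with 46.6% ± 8.20 in the 16 samples of P9 and 36.8% ± 6.61 in the 12 samples of P23. By P45 (n = 16) the 4 mean shares, pooled over the tissues, were closer, with 30.5% ± 9.04 for Gabra5, 24.5% ± 9.16 for Gabra2, 23.4% ± 2.81 for Gabra4, and 21.5% ± 4.60 for Gabra3. Within tissues the P45 means differed in spread. They ran from 14.5% (Gabra2) to 40.5% (Gabra5) in MEC LDeep and from 21.7% (Gabra4) to 29.3% (Gabra5) in LEC LDeep.
The share of Gabra4 went from 7.09% to 19.2% over the P2 samples and from 18.8% to 29.1% over the P45 samples, and these ranges overlapped by the library almost without Slc17a7. Sample by sample, the largest share was that of Gabra2 in 12 of 20 samples of P2, of Gabra5 in 4, and of Gabra3 in 4. It was that of Gabra5 in all 16 samples of P9, in 10 of 12 of P23, and in 11 of 16 of P45, while Gabra2 led in 2 of P23 and 4 of P45 and Gabra4 in 1 of P45. The summed level of the 4 genes had a median of 154 CPM per kb in P2 samples, 252 in P9 samples, 266 in P23 samples, and 255 in P45 samples. The mean share of Gabra2 was thus lower from P9 on than in P2 samples, while its own LFC with age was 0.01. Without the 5 or all 7 libraries, no mean share of an age moved by more than 1.30 percentage points.

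**Figure D3:**
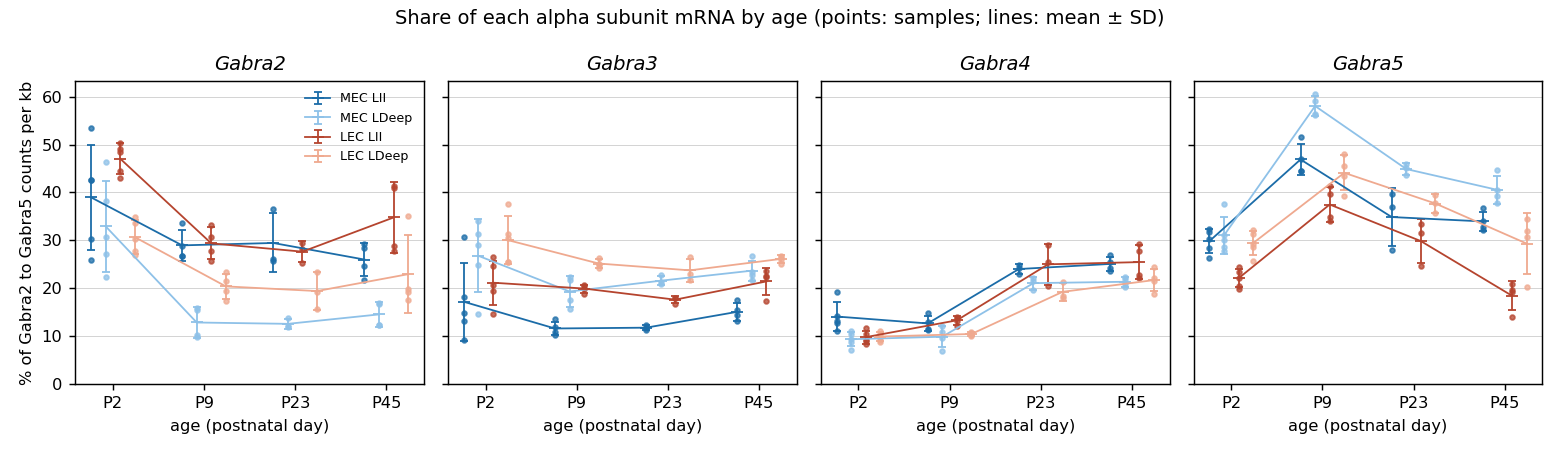
Share (percent) of Gabra2, Gabra3, Gabra4, and Gabra5 in their summed CPM per kb by age, 1 panel per gene, with points for samples and lines through the mean ± SD of each tissue. Over the tissues, the mean of Gabra2 is highest at P2 (37.4%), that of Gabra5 at P9 (46.6%), and that of Gabra4 at P45 (23.4%), and at P45 both MEC tissues lie above both LEC tissues in the mean share of Gabra5.

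Within the layers the order of the shares differed. Among P2 samples Gabra2 held 43.0% ± 8.76 in LII (n = 10) and 31.8% ± 6.85 in LDeep (n = 10), whereas Gabra3 held 19.1% ± 6.62 in LII and 28.4% ± 6.33 in LDeep. Among P45 samples Gabra2 held 30.4% ± 7.12 in LII (n = 8) and 18.7% ± 7.18 in LDeep (n = 8), Gabra3 18.2% ± 4.04 and 24.9% ± 1.96, and Gabra5 26.2% ± 8.65 and 34.9% ± 7.54. Split by tissue (n = 4 each), Gabra5 held 33.9% ± 2.05 in MEC LII, 40.5% ± 3.0 in MEC LDeep, 18.4% ± 3.07 in LEC LII, and 29.3% ± 6.30 in LEC LDeep among P45 samples, and Gabra2 held the largest mean share in LEC LII, with 34.8% ± 7.42.
The order of the 7 genes by their mean level per length changed with age. Among P2 samples Gabra2 was highest (57.7 ± 14.5 CPM per kb), followed by Gabra5 (43.9 ± 11) and Gabrb2 (43.2 ± 12.7). Gabra5 was highest in the P9 samples (124 ± 32.4) and, within the spread of Gabrb2, in the P23 samples. Among P45 samples Gabrb2 was at 89.4 ± 15.5 and Gabra5 at 78.0 ± 27.9, which overlapped, and Gabrb1 (35.7 ± 9.66) and Gabrd (36.9 ± 12) were lowest.

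To find laminar differences, LII was compared with LDeep with ages and regions weighted equally. Gabra2 and Gabrd were higher in LII, Gabra3, Gabra5, Gabrb1, and Gabrb2 were higher in LDeep, and Gabra4 was not called. Thus 6 of 7 genes were called beside 54% of all genes. The largest differences were those of Gabra3 and Gabra5, both lower in LII, and of Gabra2, which was higher in LII although all 3 are alpha subunits.

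**Figure D4:**
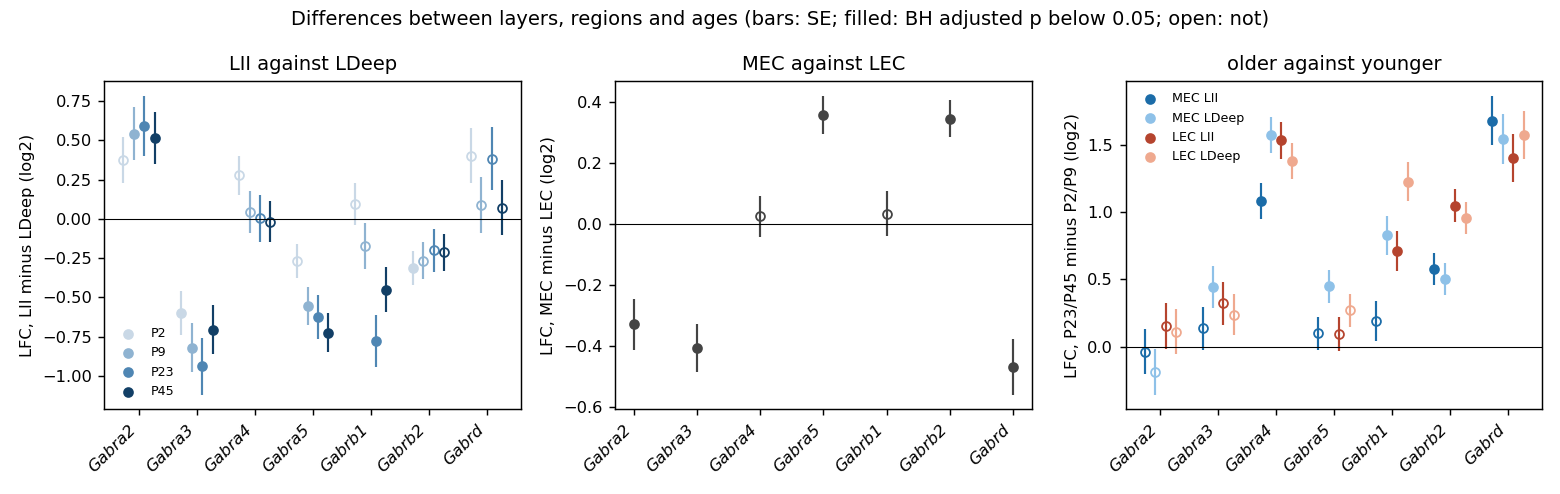
LFC of the 7 subunit genes for LII against LDeep at each age (left), MEC against LEC (middle), and older against younger animals in each tissue (right), with standard errors as bars and filled points for an adjusted p below 0.05. Gabra3 is negative between layers at all 4 ages (-0.60 to -0.94), the regions differ on both sides of 0 (-0.47 to 0.36), and Gabra4 and Gabrd are above 1 in every tissue.

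Gabra3 at P45 had log2 CPM of 5.83, 5.84, 5.98, and 6.09 in MEC LII and 6.88, 6.84, 6.96, and 6.78 in MEC LDeep, and of 6.19, 6.11, 6.64, and 6.90 in LEC LII and 6.93, 7.01, 7.13, and 6.85 in LEC LDeep. The MEC layers were thus separate and the LEC layers overlapped by 1 sample. Over the 8 combinations of age and region, LII lay wholly below LDeep in 6, and its mean was lower in 8. The LFC was -0.77 ± 0.08 (BH adjusted p = 5.3e-12), with -0.60, -0.82, -0.94, and -0.71 at the 4 ages in order, all called.

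Gabra5 at P45 was at 7.65, 7.72, 7.47, and 7.70 in MEC LII and at 8.37, 8.05, 8.04, and 8.20 in MEC LDeep, without overlap. In the LEC at P45 it was at 6.45, 6.78, 7.06, and 6.74 in LII and at 7.75, 7.91, 7.90, and 7.01 in LDeep, where the fourth LDeep sample came within the LII range. LII lay wholly below LDeep in 6 of 8 combinations. The LFC was -0.54 ± 0.06 (BH adjusted p = 1.1e-10), and at the single ages it was -0.27 ± 0.11 at P2 (0.079, not called), -0.56, -0.62, and -0.72. Without the library almost without Slc17a7, the difference at P2 was called as well (LFC -0.38, 0.0049), and so it was without all 7 libraries (-0.37, 0.0024).

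Gabra2 showed the opposite order. In the MEC at P23 it was at 7.09, 7.53, and 7.04 in LII and at 6.14, 6.54, and 6.32 in LDeep, which did not overlap, and in the LEC at P23 at 7.22, 7.25, and 7.39 in LII and 6.82, 7.29, and 6.86 in LDeep, which did. LII was wholly higher in 3 of 8 combinations, and its mean was higher in 8. The LFC was 0.51 ± 0.08 (BH adjusted p = 1.2e-06). It was 0.37 ± 0.15 at P2 (0.068, not called) and 0.54, 0.59, and 0.52 at the later ages, each called. At P2 it was called without MEC LDeep replicate 1 (0.44, 0.025) and without all 7 libraries (0.45, 0.031). These later calls were near the threshold, and each was lost in 2 or 3 of the 16 fits that left out a replicate number, with P9 replicates 1 or 4, P23 replicates 1 or 3, and P45 replicates 1, 2, or 3. Without the 4 libraries with Gabra6 the LFC was 0.53 at P23 (0.057) and 0.50 at P45 (0.053).

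The beta genes were lower in LII, with LFC of -0.33 ± 0.07 for Gabrb1 (BH adjusted p = 0.00018) and -0.25 ± 0.06 for Gabrb2 (0.00045). Gabrd had an LFC of 0.24 ± 0.09 (0.025), and it lost its call in 5 of the 16 fits that each left out a replicate number at an age, those of replicates 4 and 5 at P2, 2 at P23, and 1 and 4 at P45 (LFC 0.19 to 0.28 over the 16 fits, highest adjusted p 0.079). Without the 5 libraries its LFC was 0.29 (0.0041). Gabra4 had an LFC of 0.08 ± 0.07 (0.35).

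At single ages, 2 of the 7 genes were called between layers at P2 (beside 19.2% of all genes) and 3 at P9 (beside 33%). There were 4 calls each for P23 (25.9%) and P45 (26.4%). Gabra3 was called at each age and Gabrb2 at P2 only (-0.31, BH adjusted p = 0.032), where it was lost without the library almost without Slc17a7 (-0.24, 0.10). Gabrb1 was called at P23 (-0.78) and P45 (-0.45), with an LFC of 0.10 ± 0.13 at P2 and -0.17 ± 0.14 at P9. Without the 4 libraries with Gabra6, its LFC at P45 was -0.41 (0.067), and without P45 replicate 3 it was -0.45 (0.064). The call of Gabrb2 at P2 was lost in 11 of the 16 fits that left out a replicate number, and that of Gabra3 at P2 when only P2 samples were fitted (-0.55, 0.087). Gabrd at P2 was called without the library almost without Slc17a7 (0.49, 0.036), and also without P2 replicate 3 (0.52, 0.039). Without all 7 libraries 4 genes were called at P2, Gabra2, Gabra3, Gabra5, and Gabrd (0.47, 0.030), but not Gabrb2 (-0.16, 0.26), and Gabrb1 lost its call at P45 (-0.28, 0.20).
Whether the layer difference varied with age was tested by itself, as the LFC of LII over LDeep in older minus that in younger animals. Gabrb1 was the only 1 of the 7 genes called, with -0.58 ± 0.15 (BH adjusted p = 0.0063), beside 8.8% of all genes. In the MEC at P23 Gabrb1 was at 5.47, 6.0, and 5.58 in LII and at 6.39, 6.59, and 6.61 in LDeep, and at P2 at 5.76, 5.20, 5.11, 5.10, and 4.93 in LII and at 5.30, 5.01, 5.10, 5.77, and 5.13 in LDeep. The layers were separate at P23 and overlapped at P2. Without the 5 libraries the value was again -0.58, and it remained called. Without LEC LDeep P45 replicate 4, Gabra5 was called too (-0.36, 0.037), and without all 7 libraries only Gabrb1 was (-0.52, 0.018).

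In the MEC alone 5 of 7 genes were called between layers (40.8% of all genes), 1 higher and 4 lower in LII, and in the LEC 6 (38.6%), 2 higher and 4 lower. Of these, Gabrb2 in the MEC (-0.23, BH adjusted p = 0.027) and Gabrb1 in the LEC (-0.27, 0.034) were lost without the 4 libraries with Gabra6 (-0.22, 0.057, and -0.25, 0.077) and without all 7 (-0.16, 0.11, and -0.19, 0.18). In the MEC alone Gabra4 (0.15 ± 0.10, 0.19) and Gabrd had no call, Gabrd with an LFC of 0.01 ± 0.13 there, against 0.46 ± 0.13 in the LEC (BH adjusted p = 0.0029), and 0.56 in the LEC without the 4 libraries with Gabra6. The difference between these LFC was -0.46 ± 0.18 (0.26) and was not called. For a layer difference that varied between regions, 0 of 7 genes were called by edgeR, DESeq2, or limma voom, beside 1.25% of all genes, and 1 (Gabrd) had an unadjusted edgeR p below 0.05.

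Other cells also differed between the layers. Their calls stand beside 54% of all genes called (23.5% higher and 30.5% lower in LII). Of 8 meningeal fibroblast markers 7 were higher and 1 lower in LII (median LFC 3.84), with sums of 25.2 to 1540 CPM in LII and 27.2 to 1068 CPM in LDeep. All 6 astrocyte and all 6 endothelial markers were higher in LII (median LFC 0.85 and 0.79), with astrocyte sums of 767 to 5056 CPM in LII and 501 to 3295 CPM in LDeep. Endothelial sums were 147 to 418 and 120 to 318 CPM. Of 8 general neuronal markers, 6 were lower in LII and 2 not called, with sums of 4558 to 8131 and 6277 to 8541 CPM, and 4 of 6 oligodendrocyte markers were lower in LII. Their part in the laminar values of the subunits was not tested.

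Between the regions, Gabra5 and Gabrb2 were higher in the MEC, Gabra2, Gabra3, and Gabrd were higher in the LEC, and Gabra4 and Gabrb1 were not called. These 5 of 7 stood beside 15.4% of all genes. The LFC of MEC over LEC were 0.36 ± 0.06 for Gabra5 (BH adjusted p = 1.7e-05), 0.34 ± 0.06 for Gabrb2 (1.8e-05), -0.33 ± 0.08 for Gabra2 (0.0036), -0.41 ± 0.08 for Gabra3 (9.7e-05), and -0.47 ± 0.09 for Gabrd (0.00011). Without the 5 libraries, Gabrd was at -0.44, and 5 genes were again called.
Gabra3 in LII at P9 was at 5.52, 5.78, 5.49, and 5.76 in MEC samples and at 6.43, 6.29, 6.44, and 6.29 in LEC samples, without overlap, and the MEC was wholly lower in 4 of 8 combinations of age and layer. Gabrd was lower on average in the MEC in 8 of 8 combinations and wholly lower in 1. In LII at P9 it was at 4.67, 4.94, 4.58, and 4.56 in MEC samples and at 5.43, 5.23, 5.46, and 4.93 in LEC samples, where the fourth LEC sample lay just below the highest MEC sample.

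Gabrb2 in LII at P2 was at 5.31, 6.13, 6.53, 6.11, and 6.08 in MEC samples and at 5.40, 5.56, 5.38, 5.26, and 5.54 in LEC samples. The MEC samples lay above the LEC except for the first, which is the library almost without Slc17a7. At P45 in LII it was at 6.75, 6.94, 6.73, and 7.10 in MEC samples and at 6.18, 7.11, 6.77, and 7.24 in LEC samples, and the regions overlapped. The LFC of MEC over LEC in older minus that in younger animals was -0.46 ± 0.12 (BH adjusted p = 0.014), the only call among the 7 genes beside 4.38% of all genes. It was -0.52 and called without the 5 libraries, and lost without replicate 2 at P9, replicate 1 at P23, or replicate 3 at P23 (LFC between -0.41 and -0.53 over all left-out replicates, highest adjusted p 0.076). Gabrb1 had the same LFC, -0.46 ± 0.15 (0.06), which did not pass the threshold, passed it without the 5 libraries (-0.49, 0.045), and missed it without all 7 (-0.42, 0.10). For oligodendrocytes, 3 of 6 markers were higher in the MEC, beside 8.87% of all genes (15.4% called in either direction). Their sums were 107 to 16281 CPM in the MEC (median 222) and 94.6 to 7030 CPM in the LEC (median 257). The meningeal markers summed to a median of 242 CPM in the MEC and 465 CPM in the LEC, with none of the 8 called, and the part of these cells was not tested.

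The order of the 16 groups in each gene sums these contrasts. Gabra5 was highest in MEC LDeep at P9 (8.73 ± 0.15, n = 4) and lowest in LEC LII at P2 (6.4 ± 0.12, n = 5). Gabrd was highest in LEC LII at P45 (6.38 ± 0.30, n = 4) and lowest in MEC LII at P2 (3.27 ± 0.58, n = 5), Gabra2 highest in LEC LII at P45 (7.46 ± 0.57, n = 4) and lowest in MEC LDeep at P9 (6.31 ± 0.58, n = 4), and Gabra3 highest in LEC LDeep at P9 (7.04 ± 0.13, n = 4) and lowest in MEC LII at P2 (5.45 ± 0.76, n = 5). Without all 7 libraries the lowest group of Gabrd was MEC LDeep at P2 (3.42 ± 0.40, n = 4), just below MEC LII at P2 (3.49 ± 0.35, n = 4), while the groups named for the other 3 genes kept their place. The intervals of mean ± SD of neighbouring groups in the order over all libraries overlapped in 15 of 15 steps for Gabra2, Gabra3, Gabrb1, and Gabrd, in 14 for Gabra4 and Gabrb2, and in 12 for Gabra5.

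Over the 16 group means, Pearson's r was 0.91 for Gabra4 and Gabrd, 0.87 for Gabrb1 and Gabrb2, 0.84 for the neighbours Gabra4 and Gabrb1, and 0.04 for the neighbours Gabra4 and Gabra2. Other genes on different chromosomes reached like values, with 0.85 for Gabra4 and Gabrb2 and 0.90 for Gabrd and the gamma subunit gene Gabrg1. For Gabra5 and Gabrd, also on different chromosomes, r was 0.38. These values describe 16 means that share 4 ages and their libraries, and carry no test. Among 11896 genes, the gene outside the lists closest to Gabra4 was Scp2 (r = 0.99), to Gabrd Asrgl1 (0.98), to Gabrb2 Actn2 (0.98), to Gabra5 Pmvk (0.96), to Gabra3 Gtdc1 (0.96), to Gabrb1 Atp6v0a1 (0.95), and to Gabra2 Ppfibp1 (0.94). Next came Ntsr2 and Cap2 for Gabra4, Susd3 and Anxa3 for Gabrd, Uhrf1bp1l and Adcy2 for Gabrb2, Abhd17b and Enoph1 for Gabra5, Pdxp and Asic2 for Gabra3, Ptprn2 and RGD1307443 for Gabrb1, and Tmem164 and Ptpn14 for Gabra2.

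Of 9 other GABA-A subunit genes, 5 passed the filter, and Gabre, Gabrp, Gabrr1, and Gabrr3 did not, with at most 5, 1, 6, and 10 counts in a sample. With age, 3 were up- and 2 down-regulated, so all 5 were called beside 81.6% of all genes. Gabrr2, a rho subunit gene, rose with an LFC of 1.21 ± 0.22 (BH adjusted p = 2.6e-06) and Gabrg1, a gamma subunit gene, with 0.70 ± 0.06 (4.2e-17). Gabrg3, another gamma subunit gene, fell by 0.58 ± 0.11 (3e-06), and Gabrq, the theta subunit gene, by 1.32 ± 0.21 (1e-07). Gabra6 (4.86 ± 2.29, 0.048) rests on the 4 libraries named above.
Between layers (54% of all genes called), Gabrg1 was higher in LII (0.23), and Gabrq (-1.32) and Gabrg3 (-0.26) were higher in LDeep. Gabrr2 (-0.46 ± 0.22) and Gabra6 were not called. Between regions (15.4% of all genes called), Gabrr2 (-1.15) and Gabrq (-0.88) were higher in the LEC, and the other 3 were not called.

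Of 17 genes for proteins that hold or move the receptor, 7 were up-regulated with age and 3 down-regulated, with a median LFC of 0.06, so 10 were called beside 81.6% of all genes. The largest changes were those of Plcl1 (a phospholipase C related protein that binds the receptor, 1.25) and Mdga1 (-1.15), whereas Gphn, the gene of the scaffold protein gephyrin, had an LFC of -0.04 ± 0.05 (BH adjusted p = 0.43). Between layers (54% of all genes called) 7 were higher in LDeep and none in LII, with the largest LFC in Mdga1 (-0.79), and between regions (15.4%) 6 were higher in the MEC, led by Iqsec3 (0.41), and 1 in the LEC (Hap1, -0.57).
Of 7 genes of GABA synthesis, transport, and breakdown, 4 rose with age and 1 fell, again beside 81.6% of all genes called, with the largest changes in Abat (GABA transaminase, 1.57) and Slc6a11 (a GABA transporter, -0.32). The layers differed in 1 (beside 54%), Slc6a13 (3.86, higher in LII), which is also on the meningeal marker list, and the regions in 2 (beside 15.4%), Slc32a1 (0.34, 0.048) and Aldh5a1 (0.29), both higher in the MEC. Of 4 GABA-B receptor genes, 3 rose with age (beside 81.6%), led by Kctd16 (1.89). Between layers (54%), 1 was higher in LII (Kctd16, 0.40) and 3 in LDeep (Kctd8, -1.16, most), and Kctd8 was higher in the MEC (0.55).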

How the data were processed

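According to the submitters' processing notes and methods, Trimmomatic 0.33 was used for trimming, STAR 2.4.0 for alignment to Rn6, and featureCounts (Subread 1.4.6-p1) for strand-specific counting on exons, without chimeric pairs or pairs of which 1 end was unmapped. Pairs that overlapped several genes were counted for each of them. The values deposited by the authors are these counts per gene and sample, whole numbers without normalization. Each file held 1 sample, and 0 columns belonged to other samples.

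From the counts, R 4.3.3 with edgeR 4.0.16 gave TMM library sizes, log2 CPM (prior count 2), and the quasi-likelihood test with 16 group means and no block, on genes kept by filterByExpr. P-values were BH adjusted over the 12521 genes tested, at a threshold of 0.05. A standard error is the LFC divided by the square root of the F statistic. Alternatives used DESeq2 1.42.0 and limma 3.58.1. In simulated counts for LII against LDeep (12181 genes, 200 changed), edgeR recovered 100% of changes at either fold size, with 4.31% of calls false. The simulated samples were independent, with 1 dispersion for all genes and no effects of age, region, or animal. Changed genes were drawn from those with higher counts. The simulation checks the code and cannot show how well calls hold at single ages, within tissues, or with odd libraries. The genes and lists were chosen with earlier results of these data known. The 7 members are described in full, other genes by list (the largest change per direction), and the 3 most alike genes by r. Kctd12 was not analysed here, and some genes of the GABA system are not reported here.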

Additional observations from a re-analysis of the deposited data

Results flagged for a closer look

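In 3 of 84 groups of 4 or 5 samples, the extreme sample of a subunit gene lay apart from the others by Dixon's criterion, where chance gives about 1 in 20 groups. Gabra4 in MEC LII P2 replicate 1 had a log2 CPM of 6.37, against 4.96 to 5.12 in the other samples of its group, and this is the library with almost no Slc17a7 and Neurod6. Gabra4 in LEC LII P9 replicate 4 was at 5.56, against 5.89 to 5.94. Gabrb2 in LEC LDeep P2 replicate 1 was at 5.97, against 5.78 to 5.83.

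Of 21 tests of a contrast that varied between groups, 2 passed the threshold. Over all genes, 1.25% were called for the layer contrast between regions, 8.8% for the layer contrast with age, and 4.38% for the region contrast with age. The LFC of LII over LDeep of Gabrb1 changed by -0.58 from younger to older animals, and the LFC of MEC over LEC of Gabrb2 by -0.46 (edgeR quasi-likelihood test, BH adjusted p of 0.0063 and 0.014).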

How the results depend on the processing

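No called value reversed its direction. Counts of called subunit genes that moved by over 1.5 times were those of contrasts with few calls. The change of the region contrast with age had 2 calls (1 as reported) with DESeq2, with the replicate block, without the 4 libraries with Gabra6, and without all 5 libraries, chosen after the data were seen. At P2, LII against LDeep had 1 call (2 as reported) with no filter, with at least 10 counts in every sample, and without the 4 libraries, 0 with only the samples of the contrast, and 4 without all 7 libraries. Without LEC LDeep P45 replicate 4 the change of the layer contrast with age had 2 (1 as reported). At P45, LII against LDeep had 2 (4 as reported) without the 4 libraries, and P45 against P23 had 0 (1 as reported) with counts summed by replicate number. Without the division by exon length, the share of Gabra5 among the 4 alpha genes at P2 was 33.1% and that of Gabra4 at P45 was 20.1%.

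With each replicate number left out in turn, calls ranged from 1 to 4 at P2 and from 2 to 4 at P45 (LII against LDeep), from 0 to 1 for P45 against P23, from 1 to 2 for the layer contrast with age, and from 0 to 2 for the region contrast with age. Of 3045 single values of subunit genes under planned settings, 2961 kept their side of the threshold, 57 lost a call, and 27 gained 1. Of the 2961, 90 changed sign, each called in neither fit and at most 0.09 in size (Gabra2 with age among them). The lost calls were mostly of Gabrb2 and Gabrb1 between layers within a region or at P2, also under limma voom with quantile normalization and at least 10 counts in every sample.

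The sources tie a replicate number to an animal only for the study's microRNA samples, so whether a number marks an animal here could not be checked. Of 96 same-numbered pairs 55 correlated above 0.1 (lowest -0.26, mean 0.134, against -0.0430 over 300 others), and 37 of 64 samples correlated best with their own number. Same-numbered samples were thus more alike on average, although not in every pair. The main fit has no block and takes all 64 samples as independent. If a number marks an animal, the p-values of the age contrasts rest on fewer animals than samples. The block moved the region contrast with age (Gabrb1 then called, LFC -0.43, adjusted p 0.0499) and called Gabra2 at P2 (0.38, 0.018). Over all genes it moved the layer contrast between regions from 156 to 286 calls, and as a random term (correlation 0.123) P45 against P23 from 482 to 248, with 60 from summed counts. With at least 10 counts in every sample, LII against LDeep had 4353 calls in place of 6767. Counting depth limits Gabrd at P2 most, with 32 to 207 counts a sample.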
